A study of Mus musculus with 2 samples.

Results

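The BCL2 family genes set whether a cell starts the mitochondrial route of apoptosis, and 10 of them were described here in mouse liver: Bcl2, Bcl2l1, Mcl1, Bax, Bak1, Bid, Bcl2l11, Bbc3, Pmaip1 and Bcl2l14. They were taken as every non-control probe whose transcript accession belongs to one of these genes, which gave 13 probes for 10 of the 20660 named genes on the array. Bcl2l1, Mcl1 and Bcl2l14 had 2 probes each, and the other 7 genes had 1. Each of the 13 probes occupied 1 spot, none was marked as an outlier and none was saturated.

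The CREBH-Tg group was a pool of livers from transgenic mice carrying a human cDNA for active CREBH, a liver transcription factor, expressed mainly in the liver. The WT group was a pool of livers from wild-type mice. The strain background is given as C57B6J, and both groups ate the HFHS diet for 12 weeks, so no group on another diet enters. Neither the age and sex of the mice, nor the number of animals per pool, nor the promoter that drives the transgene is given in the sources used here. Each pool was hybridised to 1 array, so no spread between animals or pools could be had, no test was run, and differences are described by size.

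The family works by binding within itself. Anti-apoptotic members such as BCL2, BCL-XL and MCL1 hold the pore-forming effectors BAX and BAK in check at the mitochondrial outer membrane. BH3-only members such as BID, BIM, PUMA and NOXA respond to stress, neutralise the anti-apoptotic members or engage the effectors directly, and so promote release of cytochrome c. In hepatocytes the loss of BCL-XL or MCL1 is known to cause spontaneous apoptosis, and BID links death receptors to mitochondria.

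All log2 levels below are relative to the 75th percentile of an array's processed intensities, which stood at 309 for CREBH-Tg and 333 for WT. Of the non-control spots, 58.34% on the CREBH-Tg array and 55.41% on the WT array were well above background. Both arrays lay on the same slide. Of 10 hepatocyte markers 9 were on the array, and all 9 were measured in both pools. Their summed level, in multiples of the 75th percentile, was 6980 in CREBH-Tg and 6590 in WT. Over the 13881 named genes measured on both arrays, the median log2 ratio was 0.027, CREBH-Tg over WT. Scaling to the array median in place of the 75th percentile moved that median from 0.027 to 0.12, and every gene moved by this same shift.

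Of the 10 genes, 9 were measured on both arrays, and 1 of the 9, Bcl2l14, was at least 2-fold apart. It was higher in CREBH-Tg, and none was 2-fold lower. Among all 13881 genes, 0.663% passed 2-fold as higher, 0.67% as lower and 1.33% either way. The other 8 measured members lay between log2 ratios of -0.20 and 0.18, a range that held 67.3% of all genes. The median over the 9 members was 0.057. In bulk tissue, fewer cells of a type and less RNA per cell cannot be told apart.

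**Figure D1:**
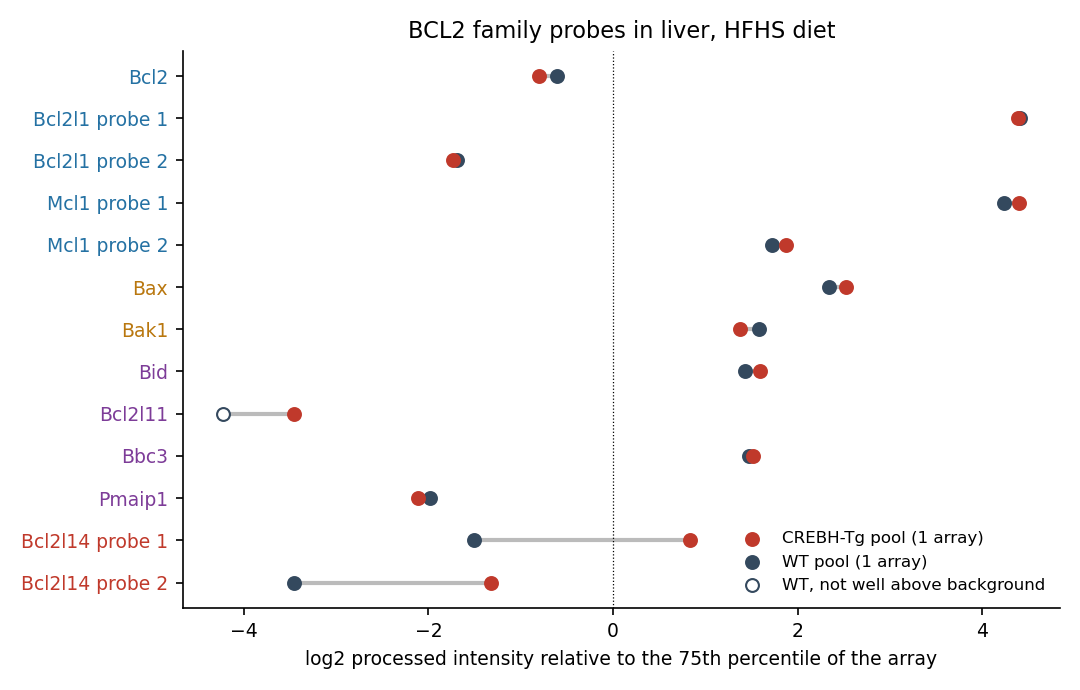
Log2 processed intensity relative to the 75th percentile of each array (x axis) for each of the 13 probes (rows), with 1 point for the CREBH-Tg pool and 1 for the WT pool. The 2 points lie close together for the probes of 8 genes and far apart for both Bcl2l14 probes, and the open WT point of Bcl2l11 was not well above background. Different probes bind with different strength, so rows are not to be ranked against each other.

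Bcl2l14 encodes BCL-G, a family member with a BH3 region whose part in cell death is less settled than that of the others. Its brighter probe read a processed intensity of 547 in CREBH-Tg liver and 117 in WT liver, or log2 levels of 0.83 and -1.51. The CREBH-Tg pool was 5.04-fold higher, a log2 ratio of 2.33. The second probe read 123 in CREBH-Tg and 30.2 in WT, which was 4.40-fold higher, a log2 ratio of 2.14. Both probes were well above background in both pools and stood apart in the same direction. Probe sequences were not analysed here, so the specificity of these probes was not tested. Their log2 ratios differed by 0.20, within the 0.43 that spot noise allows for such a difference (95% range).

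The unprocessed spots held the same contrast for Bcl2l14. The median pixel signal of the brighter probe was 526 over a local background of 56 on the CREBH-Tg array, and 141 over 48.5 on the WT array. For the second probe it was 150 over 52 in CREBH-Tg, and 75 over 53 in WT. The WT signal of this second probe was therefore close to its background, and its ratio is the less certain of the pair. Under the error that the scanner software attaches to each spot, the 95% range of the log2 ratio was 1.92 to 2.75 for the brighter probe and 1.52 to 2.76 for the other.

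Among the 13881 genes, Bcl2l14 had the 9th highest log2 ratio and the 13th largest in size, and 0.0937% of genes lay as far from 0 or farther. The genes on either side of it on chromosome 6 were looked up after its value was seen. Etv6 read 156 in CREBH-Tg and 175 in WT, a log2 ratio of -0.058, and Lrp6 read 2330 in CREBH-Tg and 2530 in WT, a log2 ratio of -0.0081. Neither neighbour differed by more than spot noise.

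**Figure D2:**
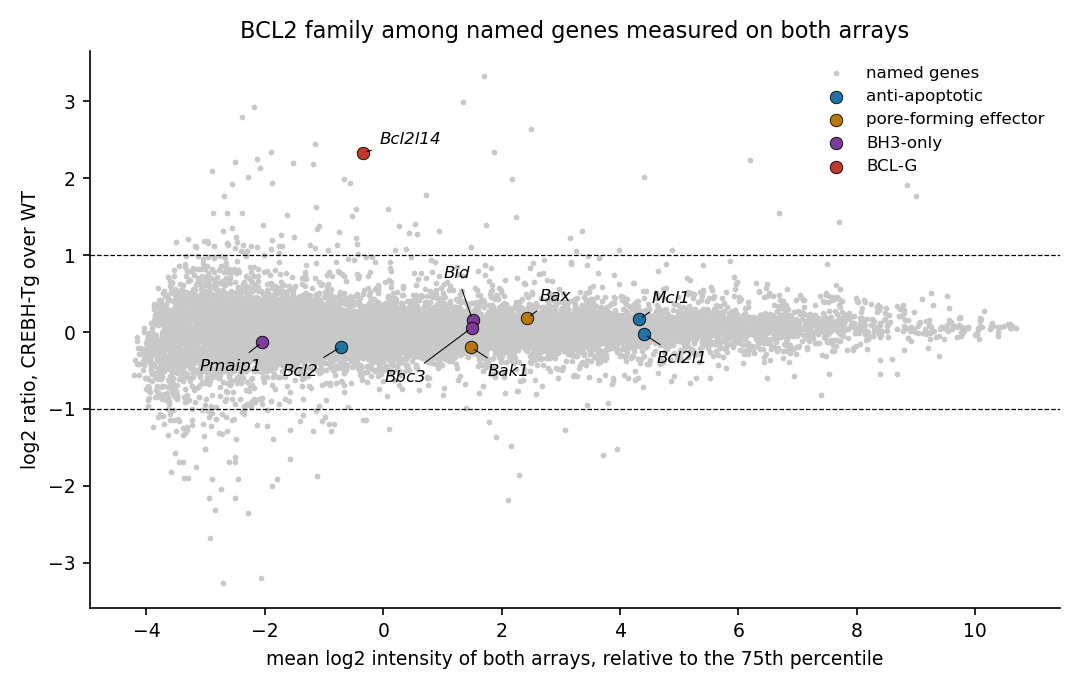
Log2 ratio of CREBH-Tg over WT (y axis) against the mean log2 intensity of both arrays (x axis) for 13881 named genes (grey), with the 9 measured members coloured by role and dashed lines at 2-fold. Bcl2l14, at 2.33, stands outside the cloud, while the other 8 members lie inside it between -0.20 and 0.18.

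CREBH is a basic leucine zipper factor of the CREB and ATF type, whose relatives bind the cAMP response element TGACGTCA or its core TGACG, and ER stress elements that end in CCACG. Start-site windows (250 bases before to 50 after) were available from RefSeq on GRCm38.p6 for 9 of the 10 genes, as 15 windows. No member window held TGACGTCA on either strand, against 1.79% of all 32851 windows. The core TGACG, which also lies inside TGACGTCA, stood in 3 of the 15 member windows (Bcl2, Mcl1 and 1 of Bbc3), against 20.8% of all windows. CCACG stood in 8 of the 15, from 5 genes, against 32.8% of all windows. The windows of Bcl2l14, the gene that was 2-fold apart, are shown with those of Bcl2 and Mcl1, which hold TGACG. Capitals mark TGACG or CCACG on either strand, so the capitals of Mcl1 show TGACG in reverse complement. The first Bcl2l14 window is chr6:134396079-134396378 (+) and the second chr6:134414178-134414477 (+). That of Bcl2 is chr1:106714241-106714540 (-), and that of Mcl1 chr3:95658471-95658770 (+).
Bcl2l14 first start: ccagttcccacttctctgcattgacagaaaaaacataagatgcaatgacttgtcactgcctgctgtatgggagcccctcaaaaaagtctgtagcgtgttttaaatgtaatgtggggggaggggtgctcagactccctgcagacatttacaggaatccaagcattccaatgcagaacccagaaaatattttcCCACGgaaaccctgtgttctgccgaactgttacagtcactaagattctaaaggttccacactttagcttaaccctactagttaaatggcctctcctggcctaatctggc
Bcl2l14 second start: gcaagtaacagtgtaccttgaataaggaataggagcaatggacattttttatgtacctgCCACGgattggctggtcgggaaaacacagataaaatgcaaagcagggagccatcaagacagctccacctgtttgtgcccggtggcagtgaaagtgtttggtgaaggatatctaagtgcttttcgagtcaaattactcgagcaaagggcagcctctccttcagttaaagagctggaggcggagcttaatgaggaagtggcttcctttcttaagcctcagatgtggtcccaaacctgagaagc
Bcl2: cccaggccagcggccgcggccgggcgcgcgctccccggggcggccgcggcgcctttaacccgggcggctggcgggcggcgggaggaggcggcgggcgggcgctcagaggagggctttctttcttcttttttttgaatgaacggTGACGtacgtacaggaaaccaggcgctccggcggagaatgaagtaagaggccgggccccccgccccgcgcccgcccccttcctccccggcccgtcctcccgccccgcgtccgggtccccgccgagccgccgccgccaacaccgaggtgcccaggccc
Mcl1: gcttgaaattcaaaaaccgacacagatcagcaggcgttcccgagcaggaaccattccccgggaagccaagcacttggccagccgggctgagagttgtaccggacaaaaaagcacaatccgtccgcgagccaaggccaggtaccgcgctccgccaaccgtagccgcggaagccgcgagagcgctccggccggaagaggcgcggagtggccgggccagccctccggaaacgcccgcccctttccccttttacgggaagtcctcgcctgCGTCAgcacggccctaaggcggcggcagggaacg
Both Bcl2l14 windows held 1 CCACG and no TGACG. Windows of Bcl2l1, Bax, Bcl2l11 and Bbc3 held CCACG too, and Bcl2l1, Bax and Bbc3 had log2 ratios of -0.024, 0.18 and 0.057. Bcl2 and Mcl1, with TGACG, had log2 ratios of -0.19 and 0.16. A match of 5 letters describes the sequence and does not show binding.

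The 3 anti-apoptotic genes were each within 1.15-fold between the pools. Bcl2, the founding member, read 177 in CREBH-Tg and 218 in WT, with log2 levels of -0.80 and -0.61 and a log2 ratio of -0.19. That is less than the 95% range of spot noise in its signal class, 0.40, but Bcl2 lay at a mean of -0.71 just under the edge of that class at -0.70. The next class has a range of 0.17, which -0.19 would exceed. Its probe is annotated to the transcript NM_177410, 1 of the Bcl2 transcripts in RefSeq.

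Bcl2l1, which encodes BCL-XL, read 6460 in CREBH-Tg and 7080 in WT on its brighter probe, where the log2 ratio was -0.024. Its dim probe read 93.3 in CREBH-Tg and 103 in WT, with a log2 ratio of -0.032. The probes differed by 0.0083, and both ratios lay inside spot noise; the brighter one was 0.065 under median scaling, so no direction is given.

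Mcl1, a short-lived guard of hepatocyte survival, read 6520 in CREBH-Tg and 6270 in WT on its brighter probe, with a log2 ratio of 0.16. The second probe read 1130 in CREBH-Tg and 1090 in WT, with a log2 ratio of 0.16 as well. The gap between its probes was 0.0079. The CREBH-Tg pool was thus 1.12-fold higher by the brighter probe, beyond the spot noise of 0.094 in the brightest class. The second probe lay inside the spot noise of its own class, 0.17.

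The pore-forming effectors went opposite ways by small amounts. Bax, which oligomerises in the outer membrane, read 1780 in CREBH-Tg and 1690 in WT, a log2 ratio of 0.18 and a fold of 1.13. Bak1, its partner resident on mitochondria, read 805 in CREBH-Tg and 995 in WT, 1.15-fold lower in CREBH-Tg at a log2 ratio of -0.20. Spot noise covers 0.094 for Bax and 0.17 for Bak1, so each exceeded it. Bak1 was at -0.072 under normexp background correction and at -0.11 under median scaling, inside spot noise in both.

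The BH3-only genes include the stress sensors of the family, and 3 of the 4 were measured on both arrays. Bid, cut by caspase-8 downstream of death receptors, read 927 in CREBH-Tg and 897 in WT, with a log2 ratio of 0.16. Bbc3, the p53 target that encodes PUMA, read 888 in CREBH-Tg and 921 in WT, with a log2 ratio of 0.057 after scaling. Pmaip1, which encodes NOXA, a partner of MCL1, was dim at 71.6 in CREBH-Tg and 84.5 in WT, with a log2 ratio of -0.13. All 3 lay inside spot noise, which allowed 0.17 for Bid and Bbc3 and 0.40 for Pmaip1. Median scaling put Bid at 0.24, beyond that range.

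Bcl2l11, which encodes BIM, was measured on the CREBH-Tg array alone. Its probe read 28.1 in CREBH-Tg, just well above background, and 17.7 in WT, not well above background. The dimmest WT probe that was still well above background had a log2 level of -4.13. Against that level CREBH-Tg was 1.59-fold higher, a log2 bound of 0.67. This bound is nominal and not a firm lower limit. The WT signal of Apaf1, at 20.3, stood above that level and yet was not well above background. The raw spot stood at 66 over a background of 56 in CREBH-Tg and at 57 over 50 in WT. The software's 95% range for the log2 ratio of the measured signals, 0.77, ran from -0.21 to 1.76 and so held 0. Under normexp the log2 bound of 0.67 was 0.24. Of the 20660 named genes on the array, 762 were measured in CREBH-Tg alone and 245 in WT alone.

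**Figure D3:**
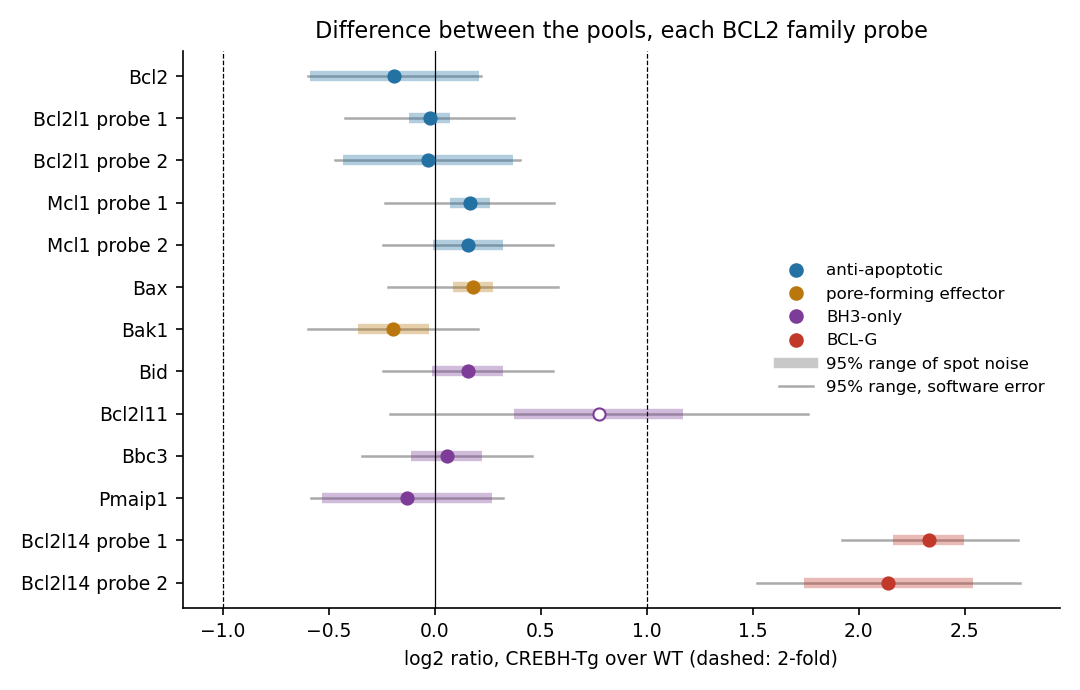
Log2 ratio of CREBH-Tg over WT (x axis) for each of the 13 probes (rows), coloured by role, with the 95% range of spot noise (thick bars) and the 95% range from the scanner software's own error (thin lines). Both Bcl2l14 probes lie past the dashed 2-fold line at 1, and the thin lines of all other probes cross 0.

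By spot noise alone and the brightest probe of each gene, 4 of the 9 measured genes were apart: Bcl2l14, Mcl1 and Bax were higher and Bak1 was lower. The same rule marked 34.1% of all 13881 genes, 21% as higher and 13.2% as lower. Spot noise leaves out pooling, labelling and hybridisation. The software's error was larger, with a standard error of the log2 ratio of 0.20 or more for every probe. By that wider range, Bcl2l14 alone of the 9 genes lay apart from 0.

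A constant scaling of either array leaves differences between members unaltered, and 7 pairs were compared, chosen after the values were seen. The balance of Bax over Bcl2, often used as an index of readiness for apoptosis, was 1.29-fold higher in CREBH-Tg, a difference in log2 ratio of 0.37 that stayed within the 0.41 that spot noise allows. This difference was 0.32 under quantile normalization, 0.33 under loess and 0.23 under normexp, which do not scale by a constant. Bax over Bak1 was 1.30-fold higher, a difference of 0.38 against a spot noise of 0.19. Bcl2l1 over Mcl1 differed by -0.19 and Bax over Bcl2l1 by 0.21, both against 0.13. Bcl2 over Mcl1 differed by -0.35 against 0.41, Bak1 over Mcl1 by -0.36 against 0.19, and Bak1 over Bcl2 by -0.0065 against 0.43. Of the 7 pairs, 4 exceeded spot noise, and the software's 95% range held 0 for all 7.

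A list of 15 further family members was set beside these genes. It had 13 genes on the array, of which 10 were measured on both and Bcl2l10, Hrk and Bcl2l15 on neither. Their median log2 ratio was 0.045, and none was 2-fold apart. By more than spot noise, 4 were higher and 0 lower, beside 21% and 13.2% of all genes. Bik, a BH3-only protein of the endoplasmic reticulum, was farthest from 0, at 200 in CREBH-Tg and 140 in WT, or 1.55-fold higher. Bok, an effector relative of Bax and Bak1 named after its value was seen, read 929 in CREBH-Tg and 692 in WT, or 1.45-fold higher. Bad, a BH3-only protein held inactive by insulin and growth factor signalling, was at 0.23 and Bmf at 0.19, both also named after their values were seen. The mitophagy receptors Bnip3 and Bnip3l were at -0.0047 and -0.019. Bcl2a1d belongs to a group of near-identical genes, so its -0.056 is uncertain.

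Genes upstream and downstream of the family showed no 2-fold difference. Among all genes 1.33% did, so this count is near the share over all genes. Over all 6 lists, 77 distinct genes were measured on both arrays, with a median log2 ratio of 0.045, beside 0.027 for all genes. A size of 1.5-fold was reached by 4 of the 77, Bik, Phlda3, Chac1 and Trib3, all higher in CREBH-Tg, and by 4.55% of all genes in either direction. Spot noise was exceeded by 41.6% of the 77, beside 34.1% of all genes.

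All 15 genes of the p53 list, which holds Trp53 itself beside p53 targets, were measured, with a median of 0.027. By more than spot noise, 4 were higher and 4 lower, beside 21% and 13.2% of all genes. Phlda3, a p53-induced brake on AKT, was farthest from 0, at 217 in CREBH-Tg and 141 in WT, or 1.66-fold higher. Cdkn1a, the cell cycle inhibitor p21, read 157 in CREBH-Tg and 230 in WT, 1.36-fold lower, and Mdm2 was at -0.036, both named after their values were seen.

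The death machinery after the mitochondrial step had a median near 0, with single genes apart in both directions. Of 18 apoptosome, caspase and inhibitor genes, 17 were measured on both arrays with a median of 0.022, 4 higher and 3 lower by more than spot noise. Birc5, which encodes survivin, was farthest from 0, at 213 in CREBH-Tg and 288 in WT, or 1.26-fold lower. Apaf1, the scaffold of the apoptosome, was well above background in CREBH-Tg alone, at 18 in CREBH-Tg and 20.3 in WT, and no fold is given. Cycs, Casp9 and Xiap, named after their values were seen, were at -0.019, 0.022 and 0.023. Beyond spot noise were Htra2 at 0.23, Diablo at 0.21, Endog at 0.15 and Casp6 at 0.14, and, besides Birc5, Birc6 at -0.18 and Aifm1 at -0.11. Spot noise was exceeded by 34.1% of all genes.

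Of 14 death receptor genes, 12 were measured with a median of 0.096, and the ligands Fasl and Tnf were not well above background in either pool. By more than spot noise, 3 were higher and 3 lower, beside 21% and 13.2% of all genes. Fas, the death receptor that signals through BID in hepatocytes, was farthest from 0, at 1130 in CREBH-Tg and 969 in WT, or 1.25-fold higher. Fas and Tnfrsf10b stand in the p53 list too.

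The 12 ER stress and stress kinase genes had a median of 0.075. By more than spot noise, 4 were higher and 0 lower, beside 21% and 13.2% of all genes. Chac1, an enzyme of glutathione breakdown and a target of ATF4 and CHOP, read 1310 in CREBH-Tg and 851 in WT, 1.67-fold higher. Trib3, of the same branch and named after its value was seen, was 1.59-fold higher. Ddit3, which encodes CHOP, a factor known to act on Bcl2l11 and Bbc3, was near equal at 309 in CREBH-Tg and 322 in WT, a log2 ratio of 0.049. The 13 genes that control the stability or binding of family proteins had a median of 0.0078. Of them, 2 were higher and 3 lower by more than spot noise, beside the same shares of all genes. Bag1, a BCL2-binding cochaperone, was farthest from 0 there at 1.24-fold higher, and Huwe1, a ligase for MCL1, was at -0.21.

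**Figure D4:**
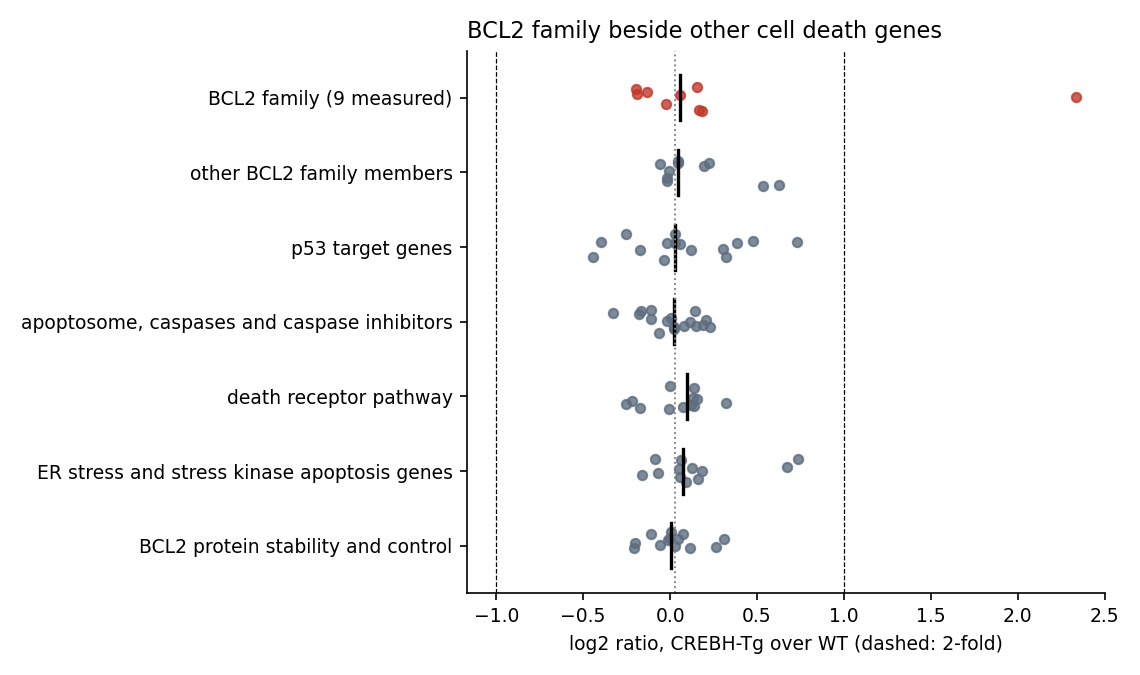
Log2 ratio of CREBH-Tg over WT (x axis) for the 9 measured members and for each gene of the 6 other lists (rows), with black bars at the list medians, a dotted line at the median of all genes and dashed lines at 2-fold. Every gene shown except Bcl2l14 lies between the 2-fold lines.

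Markers of other cell types differed between the pools in places. Gut epithelium and testis germ cells were listed because BCL-G transcripts are known there. Of 9 gut epithelium markers 8 were on the array and 4 were measured on both, with a summed level of 159 in CREBH-Tg and 128 in WT, mostly from Fabp2. Krt20 was 7.63-fold higher, at 187 in CREBH-Tg and 26.5 in WT, while Fabp2 was at 0.32, Lgals4 at -0.038 and Guca2a at -0.20. Vil1 was well above background in CREBH-Tg alone and Cdx1 in WT alone, and Cdx2 and Cdh17 in neither. Of 7 testis germ cell markers 3 were measured on both, with a summed level of 0.91 in CREBH-Tg and 1.03 in WT. All 3 were below 0 but inside spot noise, while 56.2% of all genes were above 0. Tnp2 was well above background in CREBH-Tg alone, at 15.7 in CREBH-Tg and 4.1 in WT. Prm1, Dazl and Ddx4 were so in neither. Lymphocytes depend on BCL2 proteins for survival. Of their 12 markers 11 were measured, with a median of 0.28 and a summed level of 130 in CREBH-Tg and 104 in WT, mostly from Cd4. Of the 11, 10 were above 0, as were 56.2% of all genes, and 5 exceeded spot noise, as did 34.1% of all genes. Cd3d was 2.14-fold higher on a dim probe, at 103 in CREBH-Tg and 51.6 in WT. The brighter Cd3e, at 1950 in CREBH-Tg and 1970 in WT, had a log2 ratio of 0.093, inside spot noise. Cd79a was at -0.040. Cholangiocyte markers had a median of -0.14 over 6 of 7 genes, with a summed level of 2.56 in CREBH-Tg and 3.07 in WT. Macrophage markers had a median of -0.067 over 9 of 10 genes (165 in CREBH-Tg and 180 in WT). Of these, 2 were lower by more than spot noise and 0 higher, beside 13.2% and 21% of all genes. Marco read 2420 in CREBH-Tg and 5060 in WT, 1.94-fold lower, and Adgre1 was at -0.33. Neutrophil markers had a median of -0.023 over 5 of 8 genes (181 in CREBH-Tg and 218 in WT, mostly from Csf3r). Csf3r was at -0.31, while S100a8 and S100a9 were at 0.14 and 0.22. Endothelial markers had a median of 0.055 over 7 of 7 genes (116 in CREBH-Tg and 105 in WT), and stellate cell markers 0.24 over 8 of 8 (12.3 in CREBH-Tg and 9.6 in WT). All 8 stellate cell markers were above 0. Spot noise was exceeded by 5 of them, beside 34.1% of all genes, with Lum at 1.65-fold higher. The part of these cells in the values of Bcl2l14 or the other members was not tested.

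The value of Bcl2l14 was at least 3-fold in size under every processing setting tried. Its log2 ratio ran from 1.82 under normexp to 2.42 under median scaling. No other measured member reached 1.5-fold in any of them.

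**Figure D5:**
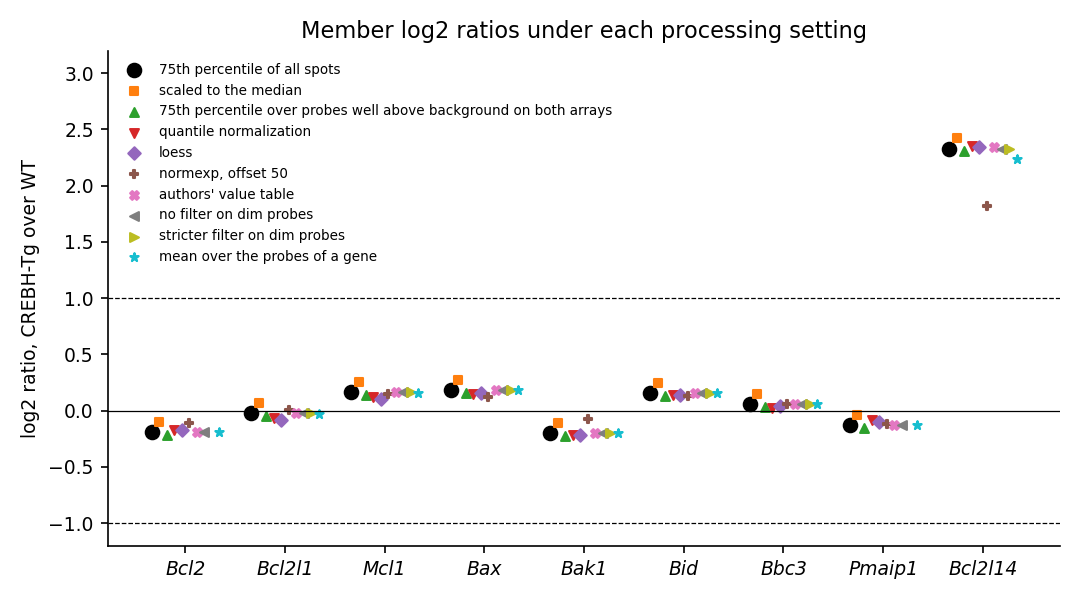
Log2 ratio of CREBH-Tg over WT (y axis) for the 9 measured members (x axis) under 10 processing settings (symbols), with dashed lines at 2-fold. Bcl2l14 stays between 1.82 and 2.42, and the other members between -0.22 and 0.27.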

How the data were processed

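Liver RNA of 1 CREBH-Tg pool and 1 WT pool was labelled with Cy3, per the labels' protocols, and hybridised to 1 Agilent array each. The deposited processed signal and its error are intensities, background-subtracted and detrended within each array by Agilent Feature Extraction 10.10.1.1, per the file headers, which give mm9 as the build of the probe annotation. The median spot and background signals are raw intensities, per the file headers. The authors' value table holds the processed intensity times 1 constant per array, 2.68 for CREBH-Tg and 2.59 for WT, with column medians of 81 and 89.8 by a rule that no source used here states.

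Processed signals were put on the log2 scale, scaled to the 75th percentile of their array and freed of 300 outlier spots. Probes were named through unversioned transcript accessions in RefSeq (GRCm38.p6, used for names and start-site windows), which named 27233 of 55677 probes. A probe with over 50% of its spots well above background was measured, and a gene took its brightest probe measured on both arrays. Spot noise was taken from probes with 5 or more spots, as 1.96 times the SD of the log2 ratios of their spots, in 3 signal classes (0.40, 0.17 and 0.094 from dim to bright). The software error of a ratio combines the deposited errors of both spots. No test was run, with 1 array per genotype, and the number of arrays limits the precision.

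Named were all members, and in each list of the pathway the genes 2-fold apart or else the gene farthest from 0; every other gene named, cell type markers included, was chosen after its values were seen. The members and lists were chosen with earlier results of these data known, and the motifs and neighbouring genes after the values were seen. The gene step was tested on simulated data for CREBH-Tg over WT with 14133 genes: 100 of 100 genes changed by a log2 ratio of 1.5, 100 of 100 changed by 2.5 and 0 of 13933 unchanged genes were called. That noise was spot noise alone and small beside the changes put in, so the outcome was nearly fixed in advance. It shows that the step runs as written and does not bear on calls in the real arrays. Alternatives were other scalings, normexp with an offset of 50, loess with a span of 0.3, the value table, other filters on dim probes, size thresholds of 1.5-fold and 3-fold, and the mean over a gene's probes. Normexp was run on the median spot signal, since the files read here hold no mean. Tools were R 4.3.3 with limma 3.58.1, and Python 3.11.15 with pandas 2.3.3, numpy 2.4.6 and matplotlib 3.10.9.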

Additional observations from a re-analysis of the deposited data

How the results depend on the processing

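Bcl2l14 was the 1 member at least 2-fold apart under all 9 other settings and at thresholds of 1.5-fold and 3-fold. Of 79 member values under those settings, 78 stayed within spot noise of the value reported, and the exception was Bcl2l14 under normexp, at 1.82 in place of 2.33; the offset of 50 added to both arrays shrinks ratios of dim probes by construction. The Bcl2l11 bound of 0.67 was 0.24 there. The member median ran from 0.028 under quantile normalization to 0.16 with the stricter filter, which leaves out Bcl2 and Pmaip1. Bcl2l1 was above 0 under median scaling and normexp and below 0 otherwise. The medians of the p53, apoptosome, further family and protein stability lists had values on both sides of 0 over the settings, and those of the death receptor and ER stress lists were above 0 in all 10. Over all genes, 92 were 2-fold higher and 93 lower in the values reported, 115 and 77 under median scaling, 42 and 17 under normexp, 29 and 11 with the stricter filter, and 605 and 782 with no filter. No paired analysis was possible because each genotype has 1 array. Signals as low as those of Bcl2l11 set the limit of what could be measured.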
